A study of Rattus norvegicus with 48 samples.

Results

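*Ctsl* and *Fam134b* are described here across 48 RNA sequencing libraries of rat skeletal muscle. They are 2 of the 31998 genes in the count table and were chosen by name, with earlier results of these data known. Both have their symbol in the tables of differentially expressed genes of the study that made these libraries. Their calls and ranks below are therefore a description and no independent evidence. *Ctsl* (ENSRNOG00000018566) encodes cathepsin L, a cysteine protease of the lysosome. *Fam134b* (ENSRNOG00000057522, listed by RefSeq as *Retreg1*) encodes a receptor of ER-phagy, the removal of endoplasmic reticulum (ER) by autophagy.

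The libraries came from the plantaris, a mostly fast-twitch calf muscle, and from the soleus, a mostly slow-twitch one. The 24 rats were female, 14 months old and of generation 19 of a selective breeding programme, 12 from low responders to endurance training (LRT) and 12 from high responders (HRT). In each line 6 rats wore a cast on one hindlimb for 3 d with the foot in plantar-flexion (hindlimb immobilization, HI), and 6 separate rats without a cast were the controls (CTRL). This gave 8 groups of 6 libraries, and all rats had been through treadmill training early in life, before the cast. HI rats received puromycin shortly before their muscles were taken, and for CTRL rats the methods state the same procedures of removal. The lines were bred for their response to training and carry many differences, so that LRT against HRT is a contrast of lines and not of single alleles. The CTRL rats were other animals, and not the uncast limb of the HI rats.

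In autophagy a membrane closes around cell contents and fuses with the lysosome, where cathepsins and other acid hydrolases digest the load. Cathepsin L is made as an inactive precursor that matures in the acid lysosome, and its mRNA is known to rise in wasting muscle. FAM134B sits in curved and tubular ER through a reticulon-type domain and binds LC3 and GABARAP proteins of the autophagosome, which carries pieces of ER to the lysosome. The receptor and the protease thus act at the start and at the end of the same route.

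Both members are shown first with the 250 bases before a start site of each gene, so that the region from which each is transcribed can be seen. The sequences are those of RefSeq on the GRCr8 build, both on the forward strand, and the letters in capitals are matches to the motifs named after them. The *Ctsl* window is chr17:769854-770103 and that of *Fam134b* is chr2:78065874-78066123.
Ctsl: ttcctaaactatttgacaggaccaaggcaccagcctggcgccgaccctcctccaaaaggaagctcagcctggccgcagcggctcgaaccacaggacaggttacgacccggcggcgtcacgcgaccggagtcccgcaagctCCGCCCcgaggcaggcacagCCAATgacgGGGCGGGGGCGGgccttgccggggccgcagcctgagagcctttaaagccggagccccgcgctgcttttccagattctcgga
Fam134b: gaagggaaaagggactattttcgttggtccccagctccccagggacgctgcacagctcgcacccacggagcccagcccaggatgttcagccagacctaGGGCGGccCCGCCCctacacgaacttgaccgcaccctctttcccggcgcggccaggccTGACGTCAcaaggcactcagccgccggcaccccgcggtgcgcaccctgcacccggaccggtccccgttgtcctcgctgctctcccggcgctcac
The *Ctsl* window holds the CCAAT box (letters CCAAT), with its first base 90 bases before the start. It also holds the GC box (GGGCGG) 3 times, on the forward strand 81 and 75 bases before the start and on the reverse strand 110 bases before it. The *Fam134b* window holds the cyclic AMP response element (TGACGTCA) 94 bases before the start, and the GC box on the forward strand at 152 and on the reverse strand at 144 bases. The E-box core CACGTG, which is bound by the lysosomal regulator TFEB, and the FoxO letters GTAAACA were not matched in either window. All 5 motifs were searched on both strands, and among 33469 promoter windows of the same length CCAAT was held by 34%, GGGCGG by 30.5%, CACGTG by 5.59%, GTAAACA by 3.21% and TGACGTCA by 1.59%. A match is a match of letters, and no measurement of these libraries bears on binding to them.

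In the plantaris *Ctsl* rose with immobilization in both lines, 4.10-fold in LRT and 2.67-fold in HRT. In the soleus it rose 2-fold in LRT, and the 1.54-fold difference in HRT did not pass the test. *Fam134b* was 2.18-fold higher after immobilization in the plantaris of LRT rats, a call that single libraries could end, and fell to 0.297 of the CTRL level in the soleus of HRT rats. Levels are given as CPM, the counts of a gene per M counts of its library, on library sizes scaled by TMM, and tests are edgeR quasi-likelihood tests with p-values adjusted over all 16960 genes tested (Benjamini-Hochberg). Values of CPM are not per length and are not compared between the 2 genes. Since whole muscle was sequenced, less RNA per cell and fewer cells of a type cannot be told apart.

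*Ctsl* lay close to one level in the 4 CTRL groups. In CTRL plantaris the lowest, median and highest *Ctsl* levels were 104, 124 and 162 CPM in LRT. In HRT they were 88.3, 97.4 and 119.6 CPM. In CTRL soleus they were 103, 106 and 123 CPM in LRT, and 66.8, 111 and 118.5 CPM in HRT. The 4 CTRL ranges overlap one another, and the 4 means lay between 100.9 ± 12 CPM (SD, n = 6) in HRT plantaris and 125.7 ± 21.0 CPM in LRT plantaris.

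After immobilization *Ctsl* in LRT plantaris had a lowest, median and highest level of 172, 412 and 1008 CPM. All 6 HI libraries were above all 6 CTRL libraries, and the HI libraries themselves spread 5.87-fold from lowest to highest. The log2 fold change (log2 FC) was 2.04 (SE 0.30, adjusted p = 7.9e-06), and only 79 of the genes tested had a larger rise. In this comparison 28.7% of the genes tested were called at an adjusted p under 0.05, and 15.1% were called higher. The share of genes with every HI library above every CTRL library was 4.69%.

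In HRT plantaris the corresponding *Ctsl* levels were 136, 201 and 619 CPM. Again all 6 HI libraries lay above all 6 CTRL libraries, although the lowest HI library, at 136 CPM, was close to the highest CTRL library at 119.6 CPM. The log2 FC was 1.42 (SE 0.30, adjusted p = 0.00275), with 140 larger rises among the genes tested. Here 11% of genes were called and 5.11% were called higher, and 3.27% had no overlap in this direction. Without HI replicate 4, the library at 619 CPM, the log2 FC was 1.01 and the adjusted p 0.0229.

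In LRT soleus *Ctsl* reached 118, 220.2 and 314 CPM at the lowest, median and highest HI library. All but 1 of the HI libraries were above all CTRL libraries, and the lowest, at 118 CPM, was inside the CTRL range. The log2 FC was 1.00 (SE 0.30, adjusted p = 0.0192), where 13.9% of genes were called and 7.36% were higher. Without HI replicate 3 (301 CPM) the log2 FC was 0.88 and the adjusted p 0.0694.

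In HRT soleus the lowest, median and highest *Ctsl* levels after immobilization were 128, 145 and 206 CPM. Each HI library was above each CTRL library, which 2.25% of the genes tested also showed. The log2 FC of 0.63 (SE 0.30, 95% interval 0.02 to 1.23) had an adjusted p of 0.144, in a comparison in which 16.2% of genes were called. The change was therefore small and in one direction, and it did not pass the test over all genes. Averaged over both lines, a fit chosen after the data were seen, the log2 FC of *Ctsl* was 1.73 in the plantaris (adjusted p = 1.24e-07) and 0.81 in the soleus (adjusted p = 0.00349).

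**Figure D1:**
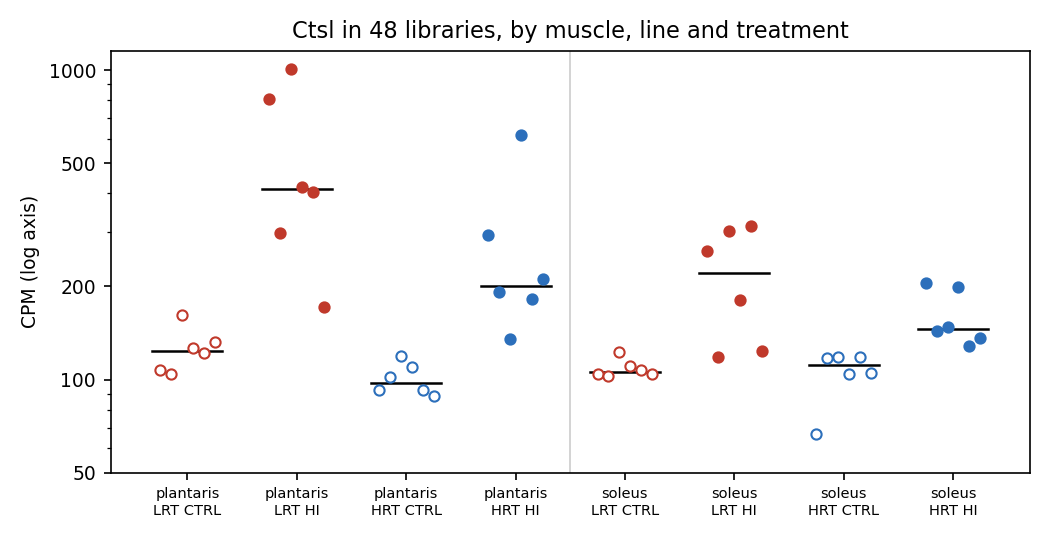
*Ctsl* level in CPM (log axis) in each of the 48 libraries, in 8 groups of 6. Open points are CTRL, filled points HI, red LRT and blue HRT, and bars are medians. The CTRL groups sit together, and LRT plantaris HI reaches the highest level, 1008 CPM.

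By the mean, the order of *Ctsl* ran from plantaris LRT HI (517.6 ± 320.5 CPM) through plantaris HRT HI (272 ± 178 CPM) and soleus LRT HI (216 ± 87.4 CPM) to soleus HRT HI (160.1 ± 33.7 CPM), with the 4 CTRL groups below. Neighbours in this order had overlapping ranges throughout. The step from soleus HRT HI to plantaris LRT CTRL, 34.4 CPM, was the only one larger than the larger SD of its 2 groups. By the SD the HI libraries spread more than the CTRL libraries in all 4 pairs of groups. The highest *Ctsl* library was 5.87, 4.56 and 2.66 times the lowest in the HI groups of LRT plantaris, HRT plantaris and LRT soleus, and 1.56, 1.35 and 1.19 times in their CTRL groups. In HRT soleus the values were 1.61 in HI and 1.77 in CTRL, where replicate 1 at 66.8 CPM was the lowest, while the SD were 33.7 and 19.8 CPM.

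*Fam134b* was a gene of low level, with 81 to 2004 counts per library. In CTRL plantaris its lowest, median and highest levels were 11.0, 12.8 and 17.1 CPM in LRT, and 12.3, 18.6 and 27.7 CPM in HRT. In CTRL soleus they were 18.2, 26.1 and 28.8 CPM in LRT, and 13.4, 24.0 and 62.4 CPM in HRT. All 6 LRT plantaris libraries of CTRL rats lay below all 6 LRT soleus libraries, as was the case for 10.7% of the genes tested.

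Of the 4 comparisons of HI with CTRL, 2 were called for *Fam134b*, and their signs were opposite. In LRT plantaris the lowest, median and highest HI levels were 9.99, 28.3 and 60.2 CPM. Of the 6 HI libraries, 4 were above every CTRL library and 1 was below every CTRL library, so the groups overlap. The log2 FC was 1.12 (SE 0.42, adjusted p = 0.0406), in the comparison in which 28.7% of genes were called. With limma-voom the log2 FC was 0.90 and the adjusted p 0.0955, and over 10 alternative settings the adjusted p was 0.0107 to 0.106. The call was also lost without any one of 8 of the 12 libraries of the comparison. Without HI replicate 5 (60.2 CPM) the log2 FC was 0.75 (adjusted p = 0.189), without HI replicate 1 it was 1.04 (0.0896) and without HI replicate 3 it was 1.08 (0.0754). Without CTRL replicates 1, 2, 4, 5 and 6 in turn the adjusted p was 0.0646, 0.0607, 0.0626, 0.0795 and 0.0798, with log2 FC from 1.06 to 1.12.

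In HRT plantaris *Fam134b* had a lowest, median and highest HI level of 5.70, 13.6 and 47.5 CPM. There was 1 HI library above all CTRL libraries and there were 2 below all of them. The log2 FC was -0.22 (SE 0.42, 95% interval -1.07 to 0.64, adjusted p = 0.793). Without HI replicate 4 (47.5 CPM) it was -0.78, with an adjusted p of 0.255.

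In LRT soleus *Fam134b* had HI levels of 6.43, 8.70 and 21.4 CPM at the lowest, median and highest library. All 6 HI libraries were below the CTRL mean of 24.6 ± 4.71 CPM and 4 were below every CTRL library. The log2 FC of -0.97 (SE 0.42, 95% interval -1.82 to -0.12) had an adjusted p of 0.116. The remaining pair of HI libraries, at 20.7 and 21.4 CPM, lay within the CTRL range.

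In HRT soleus the levels of *Fam134b* after immobilization were 2.66, 6.61 and 18.3 CPM at the lowest, median and highest library. In this group 5 of 6 HI libraries were below every CTRL library, and all 6 were below the CTRL mean. *Fam134b* fell by 1.75 on the log2 scale (SE 0.44, adjusted p = 0.00547), and 63 of the genes tested had a larger fall. In this comparison 8.23% of genes were called lower. The highest CTRL library, replicate 1 at 62.4 CPM, did not carry the call. Over all 12 fits that left out 1 library the log2 FC stayed between -2.23 and -1.42, and the adjusted p between 0.000955 and 0.0249. Markers of other cells moved in the same comparison. All 5 red-cell markers rose, where 7.95% of all genes were called higher, *Hba-a1* by 3.01 on the log2 scale (adjusted p = 0.00291), and *S100a9* of granulocytes rose by 2.35 (adjusted p = 0.0206). Single libraries carried much of both. The highest HI library had 4117 CPM of *Hba-a1* and the next 659.7 CPM, and without it, HI replicate 5, the log2 FC was 1.73 (adjusted p = 0.0189), while *Hbb* was no longer called (adjusted p = 0.0621). For *S100a9* the levels were 18.9 and 4.54 CPM, and without HI replicate 4 the log2 FC was 1.58 and not called (adjusted p = 0.111). Both macrophage-list chemokines rose, *Ccl2* by 1.52 and *Ccl7* by 1.21. Of the 7 fibroblast markers 3 fell, *Col1a1* by 1.49, *Fbn1* by 1.14 and *Pi16* by 0.64, and the calls of *Col1a1* and *Pi16* were lost without any one of 8 and 7 of the 12 libraries. *Myod1* of the satellite-cell list rose by 1.26 (adjusted p = 0.0072) with *Chrd* at 0.24 (adjusted p = 0.369). *Pln* of the slow-fibre list rose by 1.14 (adjusted p = 0.000757) with *Casq2* at -0.49 (adjusted p = 0.373). In CTRL rats *Pln* had means of 20.7 (LRT) and 16.7 CPM (HRT) in the soleus and 25.5 and 19.6 CPM in the plantaris, so it did not mark the slow muscle here. The CTRL means of *Myod1* also differed by muscle, 12.9 CPM in the plantaris of both lines, and 2.39 (LRT) and 2.04 CPM (HRT) in the soleus. Without HI replicate 5 the log2 FC of *Fam134b* was -1.82 (adjusted p = 0.00605), and without HI replicate 4 it was -1.70 (adjusted p = 0.0134). The part of the other markers in its fall was not tested. Averaged over both lines, again a fit chosen after the data were seen, the log2 FC of *Fam134b* was -1.36 in the soleus (adjusted p = 0.000874) and 0.45 in the plantaris (adjusted p = 0.249).

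**Figure D2:**
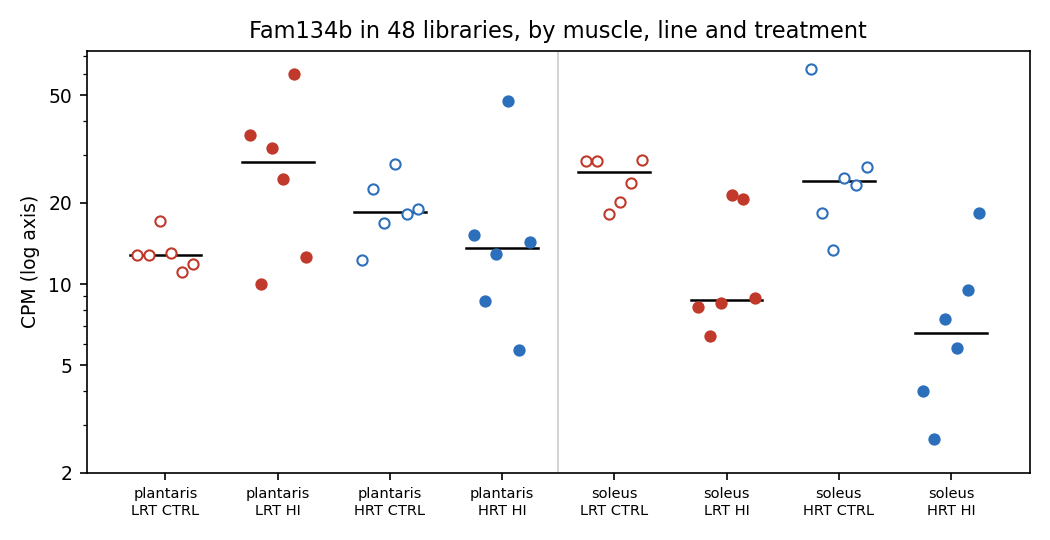
*Fam134b* level in CPM (log axis) in each of the 48 libraries, drawn as for *Ctsl*: open points CTRL, filled points HI, red LRT, blue HRT, bars medians. Soleus HRT HI reaches the lowest level, 2.66 CPM, while LRT plantaris HI spans 9.99 to 60.2 CPM.

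By the mean, *Fam134b* was highest in plantaris LRT HI (29.2 ± 18.3 CPM) and in CTRL soleus of HRT (28.2 ± 17.5 CPM) and LRT rats. It was lowest in soleus LRT HI (12.4 ± 6.78 CPM) and soleus HRT HI (7.94 ± 5.62 CPM). No step between neighbours in the order of the 8 groups was larger than the larger SD of its groups.

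The difference between the 2 muscles in the response to immobilization was then tested. In LRT rats the log2 FC of *Fam134b* was 2.09 higher in the plantaris than in the soleus (SE 0.60, 95% interval 0.88 to 3.30, adjusted p = 0.0503), where 2.18% of genes were called. This value lay just outside the threshold, and it was below 0.05 under 8 of 10 alternative settings. With line, treatment and replicate number as a block, which pairs the muscles, the difference was 1.95 (adjusted p = 0.0296). It was also below 0.05 without HI replicates 4 (0.0476) or 5 (0.0347) of LRT soleus, and without HI replicates 2 (0.0307), 4 (0.0446) or 6 (0.0252) of LRT plantaris. In HRT rats the difference was 1.54 (95% interval 0.28 to 2.79, adjusted p = 0.278), where 0.0943% of genes were called. The average over both lines was 1.81 (adjusted p = 0.00773). For *Ctsl* the same difference was 1.04 in LRT (95% interval 0.19 to 1.88, adjusted p = 0.166, and 0.88 with an adjusted p of 0.0305 under the block). In HRT it was 0.79 (95% interval -0.08 to 1.66, adjusted p = 0.455), and the average was 0.91 (adjusted p = 0.0512). Without 1 library each, the *Ctsl* difference ran from 0.70 to 1.17 in LRT and from 0.42 to 0.90 in HRT, and none of these passed the test.

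The difference between LRT and HRT in the response (DELTA) did not pass the test for either gene. For *Ctsl* DELTA was 0.62 in the plantaris (95% interval -0.22 to 1.46, adjusted p = 0.827) and 0.37 in the soleus (-0.46 to 1.21, adjusted p = 0.815). For *Fam134b* it was 1.34 in the plantaris (95% interval 0.15 to 2.53, unadjusted p = 0.0283, adjusted p = 0.779) and 0.79 in the soleus (-0.41 to 1.98, adjusted p = 0.698). Without 1 library each, DELTA of *Ctsl* ran from 0.31 (without LRT HI replicate 3) to 1.03 (without HRT HI replicate 4) in the plantaris and from 0.25 to 0.51 in the soleus. That of *Fam134b* ran from 0.98 (without LRT HI replicate 5) to 1.93 (without HRT HI replicate 4) in the plantaris, and from 0.42 (without HRT CTRL replicate 1) to 1.24 (without HRT HI replicate 6) in the soleus, and none of these passed the test. By edgeR DELTA was called for 0% of genes in the plantaris, where 1060 genes had an unadjusted p under 0.05, and for 0.0295% in the soleus. In the plantaris limma-voom called 1 gene and DESeq2 0. The intervals leave room for a line difference of 1 log2 unit and more in both genes.

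**Figure D3:**
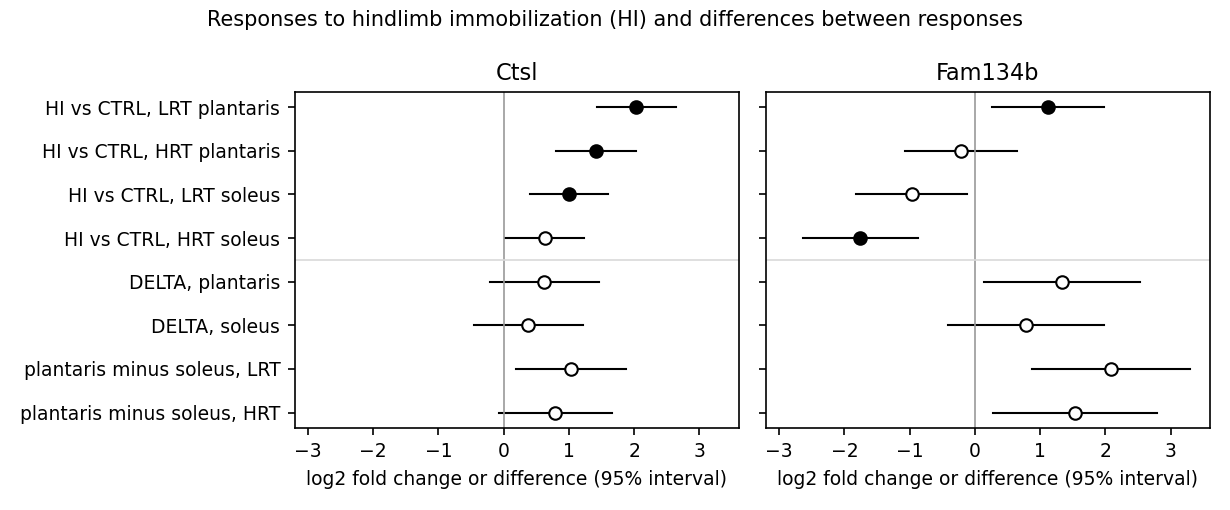
Log2 FC of HI against CTRL (upper rows), and differences between such changes (lower rows), for *Ctsl* and *Fam134b*, with 95% intervals as lines. Filled points have an adjusted p under 0.05. In the upper rows all *Ctsl* points lie above 0, while *Fam134b* runs from 1.12 in LRT plantaris to -1.75 in HRT soleus, and in the lower rows the points of both genes lie above 0, up to 2.09 for *Fam134b*.

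Between muscles of the same treatment, *Ctsl* was higher in the plantaris than in the soleus of LRT HI rats by a log2 FC of 1.22 (SE 0.32, adjusted p = 0.00326), in a comparison that called 29.8% of genes. In HRT HI rats the difference was 0.72 (95% interval 0.04 to 1.40, adjusted p = 0.092, and 0.0474 without plantaris HI replicate 3), and under the block it was 0.51 (adjusted p = 0.0459). In CTRL rats the values were 0.19 (LRT, adjusted p = 0.69) and -0.07 (HRT, adjusted p = 0.879). The comparison of HRT HI rats called 34.2% of genes, that of LRT CTRL rats 32.6% and that of HRT CTRL rats 38.8%. *Fam134b* had a plantaris against soleus log2 FC of -0.98 in LRT CTRL rats (adjusted p = 0.0776, and 0.0404 under the block) and 1.11 in LRT HI rats (adjusted p = 0.0649). The second of these had adjusted p-values of 0.03 and 0.0419 without soleus HI replicates 4 and 5. Without plantaris HI replicates 2 and 6 they were 0.0327 and 0.0419. Over 10 alternative settings its adjusted p was 0.0175 to 0.103. It was called in 3 of them, without RIN, with the number 1 to 6 as a block and with a random replicate block. In HRT the log2 FC was -0.55 in CTRL (adjusted p = 0.307) and 0.98 in HI (adjusted p = 0.103, and 0.0168 without soleus HI replicate 6). Without 1 library each, the HRT CTRL value ran from -0.68 to -0.14, with adjusted p from 0.219 to 0.828. The estimates were thus below 0 in both CTRL pairs and above 0 in both HI pairs. None of the 4 passed the test in the fit of all libraries with RIN and TMM and without a block.

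Between lines, *Ctsl* in HI plantaris was higher in LRT than in HRT rats by 0.94 on the log2 scale (SE 0.29, 95% interval 0.34 to 1.53, adjusted p = 0.0732), where 2.42% of genes were called. Without HRT HI replicate 4 this became 1.35 (adjusted p = 0.00191), and without LRT HI replicate 6 or 2 it was 1.13 (0.012) or 1.05 (0.0441). *Fam134b* in HI plantaris differed by 0.77 between lines (adjusted p = 0.32), and by 1.36 without HRT HI replicate 4 (adjusted p = 0.0276). In HI soleus the difference was 0.43 for *Ctsl* (adjusted p = 0.355) and 0.64 for *Fam134b* (adjusted p = 0.347), while 12.2% of genes were called there. Without 1 library each, it ran from 0.30 to 0.56 for *Ctsl* and from 0.38 to 1.06 for *Fam134b*, and none of these passed the test. In CTRL rats neither gene passed the test in either muscle, with log2 FC between -0.57 and 0.32 and adjusted p from 0.677 to 0.956, where 0.525% of genes were called in the plantaris and 1.45% in the soleus. In CTRL soleus the difference changed sign without HRT CTRL replicate 1, from 0.06 to -0.04 for *Ctsl* and from -0.15 to 0.21 for *Fam134b*.

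*Ctsl* was then set beside other genes of autophagy and the lysosome. Only genes whose symbol the study's tables of differentially expressed genes pair with an identifier could be used. These genes were called by the study on these same libraries, so their counts are no independent evidence of a direction. Of 67 autophagy symbols 8 were paired, and of these 8 rose in LRT plantaris, 7 in HRT plantaris, 5 in LRT soleus and 2 in HRT soleus, with none lower. Their median log2 FC was 1.38, 0.94, 0.65 and 0.22 in the same order, against medians between 0.01 and 0.02 over all genes tested. The shares of all genes called higher were 15.1%, 5.11%, 7.36% and 7.95%. Single libraries carried some of these calls. Without HI replicate 4 of HRT plantaris, the library in which both members were high, 3 of the 7 calls there remained, and *Gabarapl1* (0.70, adjusted p = 0.0754), *Sqstm1* (0.70, adjusted p = 0.068), *Map1lc3b2* (0.44, adjusted p = 0.1) and *Ulk1* (0.70, adjusted p = 0.123) lost theirs. Without HI replicate 1 or 3 of LRT soleus, 2 of the 5 remained, those of *Map1lc3b* and *Tp53inp1*. In HRT soleus the call of *Map1lc3b* was lost without HI replicate 1 (adjusted p = 0.0896) or 4 (adjusted p = 0.057). *Ulk1* was also lost without 3 other libraries of HRT plantaris and 5 other libraries of LRT soleus.

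*Map1lc3b*, which encodes the LC3B protein that coats autophagosomes and binds receptors such as FAM134B, rose in all 4 comparisons, with log2 FC of 1.26, 0.78, 0.71 and 0.60. The near-identical *Map1lc3b2* rose in 3 of them (1.16, 0.67 and 0.59) and was at 0.37 (adjusted p = 0.156) in HRT soleus. Reads of these copies may have been split between them, so their values are not separate measurements. *Gabarapl1*, of the same protein family, rose by 1.5 and 0.98 in LRT and HRT plantaris. *Sqstm1*, the cargo receptor p62, rose by 1.68 and 0.98 in the plantaris and by 0.85 in LRT soleus. *Ulk1*, the kinase that starts autophagy, rose by 1.54, 0.91 and 0.81 in the same 3 comparisons. *Tp53inp1*, which binds LC3-family proteins, rose in all 4, by 1.52, 1.03, 1.56 and 0.93. *Foxo1*, a transcription factor of the atrophy programme, rose in the plantaris (1.15 and 1.12) and was at 0.14 (adjusted p = 0.757) and 0.13 (adjusted p = 0.776) in the soleus. The difference between muscles in its response was 1.01 in LRT and 0.99 in HRT, and neither was called (adjusted p = 0.103 and 0.243). *Atg16l2*, related to the LC3-conjugating ATG16L1, rose in LRT plantaris (1.15).

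Of 57 lysosomal symbols 3 were paired, *Ctsl* itself, *Gaa* and *Sort1*. *Gaa*, the acid alpha-glucosidase that digests glycogen, rose by 1.22 and 0.56 in LRT and HRT plantaris (the second call was lost without any one of 6 of the 12 libraries) and was at 0.33 (adjusted p = 0.189) and -0.14 (adjusted p = 0.622) in the soleus. *Sort1*, a sorting receptor of the lysosomal and Golgi routes, rose by 1.05, 1.04 and 1.00 in LRT plantaris, HRT plantaris and LRT soleus. In HRT soleus *Sort1* was not called, with means of 30.9 CPM in CTRL and 41.1 CPM in HI. The log2 FC of *Ctsl* in the plantaris was above that of all these genes in both lines. That difference between genes was not tested.

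For *Fam134b* no other ER-phagy receptor was paired, 1 of 12 symbols being *Fam134b* itself. Of 37 symbols for ER shape, chaperones and ER stress 5 were paired. In the soleus 2 fell in LRT and 3 in HRT, while 1 rose in each, against 6.58% and 8.23% of all genes called lower and 7.36% and 7.95% called higher. In LRT plantaris 1 rose and 1 fell, and in HRT plantaris none was called, where 13.6% and 5.85% of all genes were called lower and 15.1% and 5.11% higher. *Hspa5*, the ER chaperone BiP, fell by 1.36 in LRT soleus and by 0.95 in HRT soleus (adjusted p = 0.000357 and 0.00895), and was at -0.08 and -0.23 in the plantaris, which did not pass the test. In LRT soleus the highest CTRL library of *Hspa5* had 753 CPM and the next 233 CPM, and without it, CTRL replicate 3, the log2 FC was -0.71 (adjusted p = 0.00486). *Atf3*, a stress-induced transcription factor, fell by 2.63 and 2.03 in the soleus of LRT and HRT rats, and *Atf5*, a related factor, fell by 1.43 in HRT soleus, and had a log2 FC of -0.96 (adjusted p = 0.000587) without CTRL replicate 1, its highest library at 94.5 CPM. *Chac1*, a glutathione-degrading enzyme induced by ER stress, rose by 2.35 and 2.51 in the soleus and by 1.27 in LRT plantaris. *Rtn4*, a reticulon that like FAM134B shapes tubular ER, fell by 1.2 in LRT plantaris, the comparison in which *Fam134b* was higher.

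**Figure D4:**
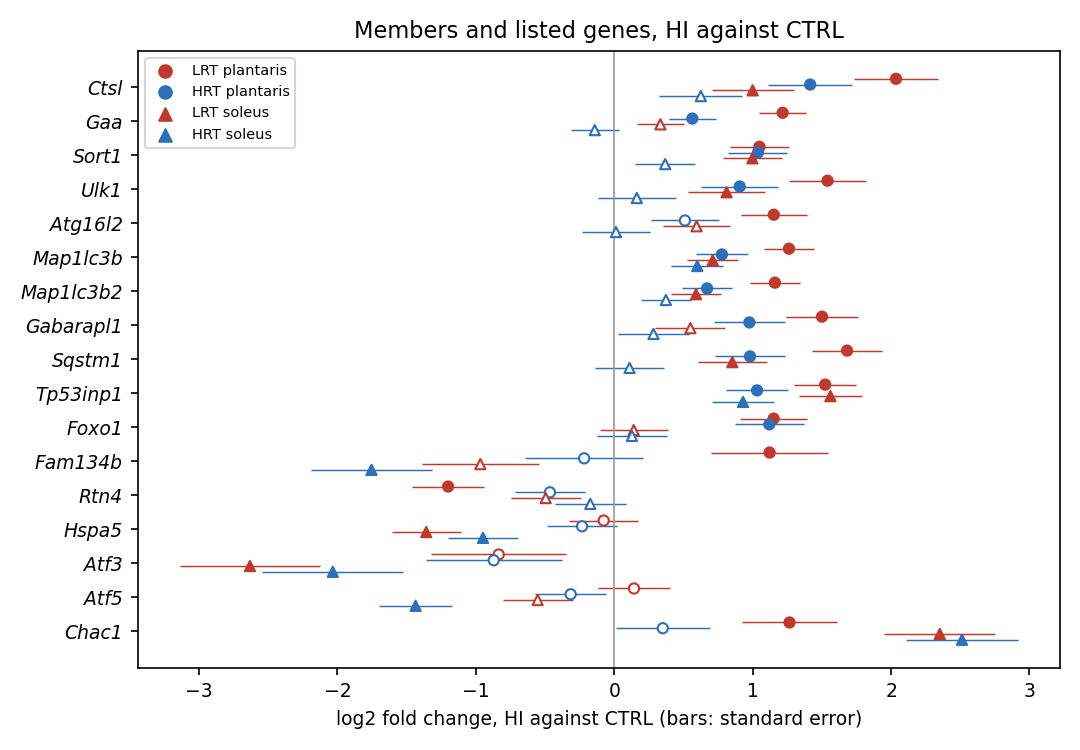
Log2 FC of HI against CTRL for *Ctsl*, *Fam134b* and the listed lysosomal, autophagy and ER genes, with standard errors as lines. Circles are plantaris, triangles soleus, red LRT and blue HRT, and filled symbols have an adjusted p under 0.05. The autophagy genes lie on the side of *Ctsl*, and *Hspa5* and *Atf3* are lowest in the soleus, as *Fam134b* is. *Chac1* goes the other way, with its highest values in the soleus.

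The genes most like each member were found by Pearson's r of log2 CPM over the 48 libraries, among genes with a paired symbol. These points share depth, muscle and treatment, and r is given as a description. For *Ctsl* they were *Map1lc3b2* (r = 0.948), *Map1lc3b* (0.935), *Sat1* (0.933), a polyamine acetyltransferase, *Psmd8* (0.93), a proteasome subunit, and *Zwint* (0.924), known for the kinetochore. No other tested gene, named or not, had a higher r than these 5. After the 8 group means were taken out, the 5 were *Tgif1* (0.908), a transcriptional repressor, *Fbxo30* (0.896), a muscle ubiquitin ligase, *Sat1* (0.895), *Map1lc3b2* (0.893) and *Psmd8* (0.884). Here 1 tested gene without a symbol had a higher r than *Tgif1*, and 6 tested genes, named or not, had a higher r than *Psmd8*. The library with the highest *Ctsl*, LRT plantaris HI replicate 3, also had the highest *Map1lc3b2* of the 48 (104 CPM). With Spearman's rho instead of r, 2 of the first 5 and 4 of the second 5 were the same genes.

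For *Fam134b* the likeness was lower. Over the 48 libraries the 5 genes were *Zfp622* (r = 0.726), a factor of ribosome assembly, *Ppp1r15a* (0.697), the stress-induced phosphatase subunit GADD34, *Hspa1b* (0.683), an inducible HSP70, *Tnfrsf12a* (0.68), the TWEAK receptor, and *Irs2* (0.658), an adaptor of insulin signalling. There were genes of higher r without a symbol here, led by ENSRNOG00000003302 (0.815). Within groups the 5 were *Zfp622* (0.671), *Sdc4* (0.659), a cell-surface proteoglycan, *Cds2* (0.65), a phospholipid enzyme of the ER, *Ppp1r15a* (0.631) and *Hspa1b* (0.617). Of all genes tested, 8 had a higher r than *Zfp622* and 37 a higher r than *Hspa1b*, among them genes without a symbol here. *Hspa1b* has a near-identical copy, and its reads may be split with it.

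The changes of these genes are a description, since they were chosen for likeness over the same libraries. The log2 FC of *Zfp622* was 0.83 in LRT plantaris, -0.04 in HRT plantaris, -0.88 in LRT soleus and -1.09 in HRT soleus. *Ppp1r15a* had 1.23 in LRT plantaris, 0.46 in HRT plantaris, -0.45 in LRT soleus and -0.74 in HRT soleus. In the same order *Tnfrsf12a* had 0.59, -0.74, -1.27 and -1.92, and *Irs2* had 0.23, -0.64, -1.64 and -1.88. *Sdc4* was at 0.53, 0.28, -0.65 and -1.04. *Hspa1b* was at -0.33, -0.36, -2.64 and -2.56, and *Cds2* at 1.46, 0.81, 0.24 and -0.11. In the GRCr8 annotation *Zfp622* is also the next protein-coding gene after *Retreg1*, with a gap of 338 bases. Whether reads of the 2 neighbours were assigned to one another was not tested. Both genes were highest of their group in plantaris HRT HI replicate 4 (*Fam134b* 47.5 CPM, *Zfp622* 854.9 CPM). The same held in plantaris LRT HI replicate 5 (60.2 and 1055 CPM). The 2 genes part in HRT soleus CTRL replicate 1, the highest of the 48 libraries for *Fam134b* (62.4 CPM). That library was the lowest of its group for *Zfp622* (419.7 CPM).

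**Figure D5:**
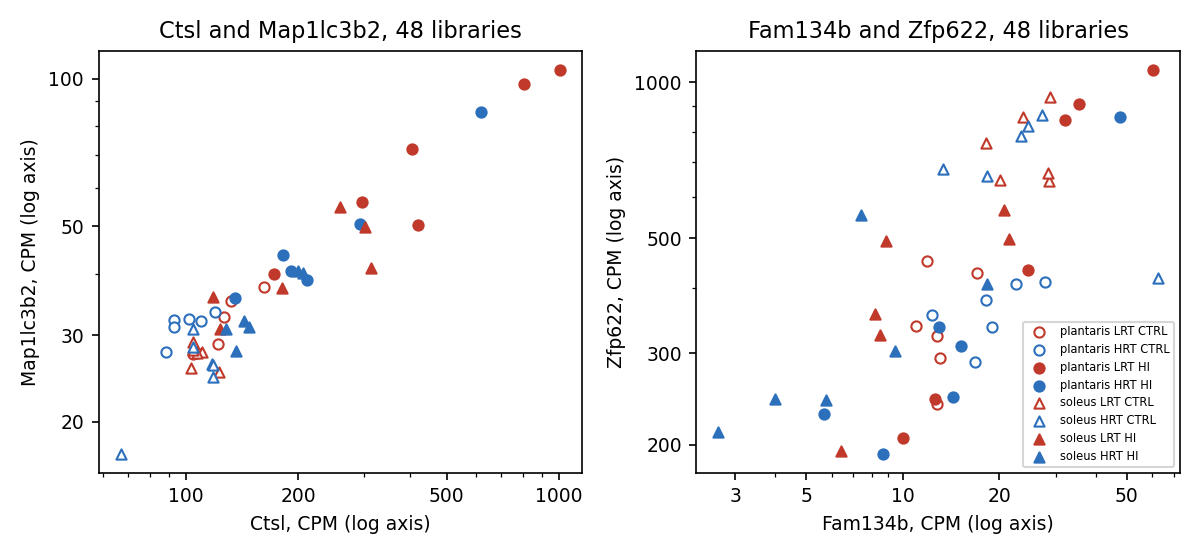
Left, *Ctsl* against *Map1lc3b2*, and right, *Fam134b* against *Zfp622*, in CPM on log axes in 48 libraries. Circles are plantaris, triangles soleus, filled HI, open CTRL, red LRT and blue HRT. The left points lie near one line (r = 0.948) and the right ones scatter more (r = 0.726).

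Over the 48 libraries r between *Ctsl* and *Fam134b* was 0.115 (Spearman's rho -0.186), and 60.4% of tested genes had a lower r with *Ctsl* than *Fam134b* did. Within groups r was 0.35 and rho 0.175, and 82.4% of genes had a lower r. In HRT plantaris HI, replicate 4 was highest for both genes. In LRT plantaris HI replicate 3 was highest for *Ctsl* and replicate 5 for *Fam134b*.

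The libraries held 26.8 to 36.4 M counts each, with RIN from 7.8 to 8.6. Marker genes moved beside the members, and their part in the results was not tested. They too could be used only where the study's tables of differentially expressed genes pair them with an identifier, so they were preselected for change. The summed level of 7 of 15 fast-fibre markers was 20800 to 32930 CPM in CTRL plantaris and 7344 to 20980 CPM in HI plantaris, and 2106 to 5167 CPM in the soleus. Of the 7, 5 fell in LRT plantaris, with the call of *Mylpf* lost without HI replicate 1 (adjusted p = 0.0552) or 3 (adjusted p = 0.0511). In HRT plantaris 1 fell, *Eno3*, a call lost without any one of 8 of the 12 libraries. *Pvalb* rose by 3.23 in LRT soleus (adjusted p = 0.000196), with medians of 1.13 CPM in CTRL and 7.2 CPM in HI and a highest HI library of 43.1 CPM, and by 2.54 without HI replicate 5 (adjusted p = 0.000872), and no other was called in the soleus. That of *Casq2* and *Pln*, 2 of 9 genes listed as slow-fibre markers, was 48.6 to 93.2 CPM in CTRL and 21.5 to 83.5 CPM in HI plantaris. By the CTRL means *Pln* was not higher in the soleus than in the plantaris, so this sum is not one of slow fibres alone. In LRT plantaris *Casq2* fell by 1.42 (adjusted p = 0.00351) and *Pln* was at -0.19 (adjusted p = 0.559). In HRT plantaris *Pln* rose by 0.95 (adjusted p = 0.00658), with *Casq2* on the other side at -1.04 (adjusted p = 0.0551). The sum in the soleus was 459 to 522 CPM in CTRL and 134 to 513 CPM in HI of LRT rats, and 397 to 583 CPM in CTRL and 169 to 491 CPM in HI of HRT rats. The 7 of 11 fibroblast markers summed to 626.5 to 1325 CPM in CTRL and 221.5 to 778 CPM in HI plantaris, and to 532.5 to 2704 CPM in CTRL and 194 to 1026 CPM in HI soleus. Of these 7, 7 fell in LRT plantaris, 5 in HRT plantaris, 1 in LRT soleus and 3 in HRT soleus, and none rose, where 13.6%, 5.85%, 6.58% and 8.23% of all genes were called lower. The call of *Col1a1* was lost without any one of 7 of the 12 libraries in LRT plantaris, where it was -0.71 (adjusted p = 0.289) without CTRL replicate 2, and of 6 in HRT plantaris, and that of *Col3a1* without 1 in LRT plantaris. The chemokines *Ccl2* and *Ccl7*, 2 of 16 macrophage markers, were low, summing to 0.623 to 3.12 CPM in CTRL and 1.33 to 8.33 CPM in HI libraries. *Ccl7* was called higher after HI in all 4 comparisons, by 1.27 in LRT plantaris, 1.14 in HRT plantaris, 1.17 in LRT soleus and 1.21 in HRT soleus (adjusted p = 0.0119, 0.043, 0.0422 and 0.0306), and *Ccl2* in HRT soleus (adjusted p = 0.00659). The call of *Ccl7* was lost without any one of 7, 7 and 5 of the 12 libraries in HRT plantaris, LRT soleus and HRT soleus. The granulocyte marker *S100a9*, 1 of 4, was 0.0935 to 4.94 CPM in CTRL and 0.544 to 18.9 CPM in HI libraries. In HRT soleus all 5 red-cell markers rose, where 7.95% of all genes were called higher. Their sum was 163 to 611 CPM in CTRL and 223 to 10500 CPM in HI, the highest in HI replicate 5. Elsewhere none of them was called. *Myod1* and *Chrd*, 2 of 5 satellite-cell markers, summed to 10.1 to 33.2 CPM in the plantaris, and in the soleus to 4.98 to 7.85 CPM in CTRL and 5.71 to 13.2 CPM in HI. *Chrd* rose by 0.58 in LRT plantaris (adjusted p = 0.00929, and 0.0595 without HI replicate 1) and by 1.04 in LRT soleus (adjusted p = 0.000138), where *Ctsl* rose too. No defining endothelial or adipocyte marker was paired with an identifier.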

How the data were processed

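RNA from the plantaris and soleus of the rats was sequenced, and 48 libraries in 8 groups of 6 were analysed, with no library left out. The deposited table holds estimated counts, 1 row to a gene. To make it the authors ran Salmon 0.9.1 on the cDNA and ncRNA sets of Ensembl release 91, per the study's methods and processing notes, and summed transcripts to genes by tximport with length-scaled TPM. The estimates (66% not whole) were rounded. The labels and the study's methods name different library kits, so strand was not settled, and reads of a gene and an overlapping neighbour may not be separated.

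Genes were kept by filterByExpr (16960 of 31998), and all libraries were fitted together in edgeR 4.0.16 (R 4.3.3) with TMM, the 8 groups and RIN, for 16 comparisons. A call is a Benjamini-Hochberg adjusted p under 0.05. Standard errors come from the log2 fold change and the F statistic, and 95% intervals use 39 residual degrees of freedom. CPM use TMM-scaled totals, and log2 CPM a prior count of 2. Totals were 26.8 to 36.4 M counts, and tests are 2-sided. In simulated data 200 of 16769 genes were changed by 1.5 log2 units, in LRT plantaris HI alone. They were drawn from all but the lowest-level genes, with the same spread in every group and no pairing of muscles. There edgeR recovered 94% in HI against CTRL of LRT plantaris, 88% in DELTA of the plantaris and 82.5% in the plantaris minus soleus difference of LRT. Of its calls 1.57%, 6.38% and 2.37% were false. In the real libraries the HI groups of *Ctsl* spread more than the CTRL groups, so these shares are not the power of the tests there.

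The libraries of a group came from separate rats. Both muscles came from the same rats per the study, whose methods name RIN as a covariate and state no block, so the main fit has none. The labels give both muscles the numbers 1 to 6 without saying that a number is a rat. Deviations of same-numbered libraries correlated by 0.323 (LRT HI), 0.21 (LRT CTRL), 0.276 (HRT HI) and 0.0963 (HRT CTRL) on average, over 0.1 in 6, 6, 6 and 4 of 6 pairs. The pairing was therefore taken as met in all groups but HRT CTRL. Fits with line, treatment and number as a block still pair every group, HRT CTRL included, and their values are given where they change a call. The lists and both members were chosen with earlier results of these data known. Named genes are both members, the paired genes of 4 lists (lysosome, autophagy, ER-phagy receptors, ER shape and stress), and the 5 most alike genes of each member over all libraries and within groups. Genes of the cell type marker lists (macrophage, fibroblast, red blood cell, granulocyte, satellite cell, slow and fast fibre) are also named beside the results, outside that rule and chosen after their values were seen. Symbols come from the study's tables of differentially expressed genes, which pair 1149 identifiers (3.59%). Other symbols are not analysed here. The fold changes and p-values in those tables were not used.

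Alternatives were limma-voom 3.58.1, the DESeq2 1.42.0 Wald test, DESeq2 size factors in edgeR, library totals, no RIN, other filters on low counts, each muscle fitted alone, 3 replicate blocks and each library left out. The average over both lines, and the fits of called markers and listed genes without each library, were added after the data were seen. Figures were drawn with matplotlib 3.10.9.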

Additional observations from a re-analysis of the deposited data

Results flagged for a closer look

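Each of the 16 sets of 6 libraries (2 genes in 8 groups) was checked for a library whose gap to its nearest neighbour was, as a share of the group's range, above Dixon's 95% critical value, and 5 sets had one. Chance gives about 1 such set in 20 where values are normal and sets are separate. The CPM were not logged here and some of the 5 sets share a library, so their number is not compared with chance.

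In plantaris HRT HI, replicate 4 was high for both genes, with *Ctsl* at 618.8 CPM and *Fam134b* at 47.53 CPM. This library also had the lowest fast-fibre sum of its group (9876 CPM, others 16080 to 19740 CPM), the lowest fibroblast sum (225.5 CPM, others 328.4 to 686.1 CPM) and the highest levels of *Ccl2* and *Ccl7* summed (8.325 CPM, others 1.33 to 6.652 CPM) and of *S100a9* (6.057 CPM, others 0.5439 to 3.946 CPM). Its RIN was 8.5, and it held 29.1 M counts.

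In soleus HRT CTRL, replicate 1 had the lowest *Ctsl* (66.84 CPM) and the highest *Fam134b* (62.44 CPM). It had the highest fibroblast sum of its group (2704 CPM, others 536.6 to 2368 CPM) and the highest satellite-cell sum (7.852 CPM, others 4.978 to 7.496 CPM). Its sum of *Casq2* and *Pln* (397.2 CPM, others 455.3 to 583.3 CPM), sum of *Ccl2* and *Ccl7* (0.6232 CPM, others 1.14 to 2.478 CPM) and *S100a9* (0.09348 CPM, others 0.1586 to 3.23 CPM) were the lowest. Its RIN was 8.4.

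In plantaris LRT CTRL, replicate 3 had the highest *Fam134b* (17.1 CPM). Its red-cell sum was 1114 CPM (others 281.3 to 708.8 CPM) and its sum of *Casq2* and *Pln* 48.61 CPM (others 76.74 to 93.22 CPM). Its fast-fibre sum (32930 CPM, others 24850 to 31810 CPM) and satellite-cell sum (18.61 CPM, others 13.92 to 18.32 CPM) were the highest, and its *Ccl2* and *Ccl7* sum (1.086 CPM, others 1.23 to 3.123 CPM) was the lowest. The part of these markers in the 5 values was not tested.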

How the results depend on the processing

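The 32 tests of the report (2 genes in 16 comparisons) were repeated 332 times with another setting, of which 302 kept direction and call, and 480 times without 1 library, of which 454 did. The 332 include the averages over both lines, which are another quantity than the single-line results they were set against. Both plantaris rises of *Ctsl* and the fall of *Fam134b* in HRT soleus were called every time. The values below are log2 FC or differences of them. Where a call or direction changed, the cause was not tested.

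The rise of *Fam134b* in LRT plantaris was no longer called with limma-voom (0.90), with all genes that have any count (1.11), with the number 1 to 6 as a replicate block (1.04) or with a random replicate block in limma-voom (0.89). Its plantaris minus soleus difference in LRT became called with DESeq2 size factors (2.09), library totals (2.18), the DESeq2 Wald test (2.09), no RIN (2.15), at least 10 counts in every library (2.09) and the replicate blocks (2.13, 1.95 and 2.01). The average over both lines for HI against CTRL of *Fam134b* was 0.45 in the plantaris. This average was not called, while LRT alone was, and HRT alone had the opposite sign. In the soleus the average was -1.36, and it was called, while LRT alone was not. The average muscle difference of *Fam134b* was 1.81 and was called, while neither line alone was. For *Ctsl* the average in the soleus was 0.81 and was called, while HRT alone was not. Calls were gained without RIN in plantaris against soleus of HRT HI (*Ctsl* 0.77, *Fam134b* 1.12) and of LRT HI (*Fam134b* 1.24), with library totals in LRT CTRL (*Fam134b* -1.12), and with the DESeq2 Wald test for *Ctsl* in LRT against HRT of HI plantaris (0.94). With library totals LRT against HRT of CTRL soleus became -0.058 for *Ctsl*.

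The pairing of the muscles by replicate number was not met in HRT CTRL, and the number alone as a block, across HI and CTRL, joins different rats. With line, treatment and number as a fixed block, calls were gained for *Ctsl* in plantaris against soleus of HRT HI (0.51) and in the LRT muscle difference (0.88), and for *Fam134b* in plantaris against soleus of LRT CTRL (-0.995). The random block gave -0.94 there and 1.07 in LRT HI, where the number as a block gave 1.16. The blocks changed no other call than these and those of *Fam134b* above.

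Without 1 library each, values ran from 0.88 to 1.15 for *Ctsl* in LRT soleus and from 0.75 to 1.30 for *Fam134b* in LRT plantaris. The muscle difference of *Fam134b* in LRT ran from 1.69 to 2.33. Plantaris against soleus ran from 0.37 to 0.84 for *Ctsl* and 0.48 to 1.52 for *Fam134b* in HRT HI, and from 0.72 to 1.34 for *Fam134b* in LRT HI. LRT against HRT ran from 0.63 to 1.35 for *Ctsl* and 0.41 to 1.36 for *Fam134b* in HI plantaris, and from -0.042 to 0.10 and -0.31 to 0.21 in CTRL soleus. *Fam134b* had 81 to 2004 counts per library and *Ctsl* 2145 to 30007, so the lowest values of *Fam134b* are the least precise.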
